A study of Homo sapiens with 12 samples.

Results

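Osmolyte handling was followed through 6 genes of the 36601 in the table: SLC5A3, SLC6A6, NFAT5, AKR1B1, ISYNA1 and IMPA1. They were picked by name, with their levels over the 4 treatments already known, so those levels are given here as a description with no p-value. How many of the 6 passed the study's threshold, in the main fit and in alternatives to it, is given beside the share of all genes. The cells were KP4, a human pancreatic ductal carcinoma line, and all groups therefore share 1 tumor's genetic background. They were kept for 24 h in vehicle (DMSO), 10 mM metformin (Met), 5 nM FK866 (FK) or both compounds (Met+FK), with 3 libraries per treatment. Metformin inhibits complex I of the mitochondrial electron transport chain, and FK866 inhibits NAMPT, the rate-limiting enzyme of NAD salvage. The study asked how FK866 alters the response to metformin. The labels do not say whether the replicates came from separate cultures, so the errors and p-values measure the spread between these libraries, which may be technical.

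Cells balance the osmotic pressure of their surroundings with organic osmolytes, small solutes such as myo-inositol, taurine, sorbitol, betaine and glycerophosphocholine, which can build up without disturbing proteins. NFAT5 is the transcription factor that responds to high tonicity, and the transporters SLC5A3 and SLC6A6 and the enzyme AKR1B1 are textbook targets of it. SLC5A3 brings in myo-inositol together with sodium, and SLC6A6 brings in taurine. ISYNA1 and IMPA1 make myo-inositol inside the cell from glucose 6-phosphate, and IMPA1 also returns inositol from inositol phosphates. Inositol is in addition the head group of the phosphoinositide lipids.

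All 6 genes passed the filter on low values, a mean normalized count of at least 10, as did 15376 genes in all. A normalized count is a gene's read pair count divided by the size factor of its library. The libraries held 30667735 to 41052203 counted read pairs (median 34767231). In bulk RNA, fewer cells of a kind and less RNA per cell cannot be told apart. Of 8 ductal epithelial markers, 6 had a mean of at least 10 (KRT18, KRT8, SOX9, KRT7, MUC1 and KRT19), EPCAM was below it and CFTR was at 0 in the 12 libraries. Their summed normalized count ran from 25301 to 26242 in DMSO, 16465 to 19625 in Met, 19349 to 22853 in FK and 16172 to 19611 in Met+FK. Most of this sum was KRT18 (means of 18307, 10421, 13635 and 10333 in that order), and the markers did not move together. SOX9 had its lowest mean in DMSO (3781, against 4444, 4865 and 4187). MUC1 had 104 in DMSO, 127 in Met, 75.5 in FK and 106 in Met+FK. Of 7 markers of other pancreatic, immune and endothelial cells, 1 reached a mean of 10: PTPRC, an immune cell marker, with a mean of 196 over the 12 libraries. Libraries leaned to different degrees with the GC content of the transcript. The slope, in log2 units per 10 points of GC, was 0.043 to 0.20 in DMSO, -0.14 to 0.080 in Met, -0.25 to 0.0027 in FK and -0.048 to 0.063 in Met+FK, and the lowest was that of FK replicate 2. Since SLC5A3 (38.3% GC), NFAT5 (39.2%) and IMPA1 (35.1%) are GC-poor and ISYNA1 (63.1%) is GC-rich, against a median of 48.5% over the tested genes, their values are given with and without this trend. Its part in the results was not tested.

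SLC5A3 lies on chromosome 21 at 34073578 to 34106260 (hg38, plus strand), inside MRPS6 (34073224 to 34143034, plus strand), which codes for a protein of the small subunit of the mitochondrial ribosome. In the GENCODE 44 annotation the first exon of the SLC5A3 transcript, 168 bases long (34073578 to 34073745), is also the first exon of an MRPS6 transcript. SLC5A3 then has 1 long exon of 11398 bases (34094863 to 34106260), which lies in an intron of MRPS6, whereas MRPS6 goes on to exons of 140 and 623 bases farther downstream. The RefSeq promoter table (GRCh38.p14) gives both genes the same start. The 250 bases before it, chr21:34073328-34073577 on the plus strand, are shown because the 2 genes share them and yet differed in their levels, as described further on. The annotated MRPS6 gene begins farther upstream, at 34073224, so this window lies inside it. Which start MRPS6 transcripts used in these cells was not tested. Capitals mark the GC box, GGGCGG or its complement CCGCCC.

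Shared promoter of SLC5A3 and MRPS6: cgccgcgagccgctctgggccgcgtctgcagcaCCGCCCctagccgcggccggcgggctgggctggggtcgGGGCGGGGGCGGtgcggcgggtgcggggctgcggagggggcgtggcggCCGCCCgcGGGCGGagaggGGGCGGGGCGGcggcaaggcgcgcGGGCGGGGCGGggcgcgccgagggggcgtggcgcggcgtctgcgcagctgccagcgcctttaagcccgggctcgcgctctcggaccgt

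This stretch was 84.8% GC, with 46 CpG dinucleotides and 9 copies of GGGCGG when both strands and overlapping copies were counted. Of 34943 promoter windows of the same length in the table, 42.5% held at least 1 copy. The letters TGGAAA, the core of the element that NFAT5 binds, did not occur on either strand of this window, nor in those of AKR1B1 (134459101 to 134459350 and 134459240 to 134459489 on chromosome 7) or ISYNA1 (18438134 to 18438383 and 18437310 to 18437559 on chromosome 19), and 18.0% of all windows held them. A match or its absence in such a window is a description of the letters and no more. Of the 7 genes sought in the table, 4 were matched, and SLC6A6, NFAT5 and IMPA1 were not.

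NFAT5 (chromosome 16, 69565094 to 69704666, plus strand), the transcription factor of the group, was higher in each of the 3 treatments than in DMSO. Its normalized counts were 2935, 3092 and 2793 in the DMSO replicates, 5291, 5332 and 4621 in Met, 3880, 4914 and 4018 in FK, and 5180, 5019 and 4099 in Met+FK. The DMSO libraries lay below the other 9, and the ranges of the 3 treatments overlapped each other. The log2 fold change against DMSO was 0.79 ± 0.11 (SE, n = 3) in Met, 0.53 ± 0.11 in FK and 0.69 ± 0.11 in Met+FK. With the GC and length trend removed the 3 values were 0.41, 0.13 and 0.37. NFAT5 shares 1588 of its 20275 exon bases with AC012321.1, a gene on the same strand, so its count may miss or mix reads there.

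SLC5A3, the inositol transporter, reached its highest level with FK866 alone. Its normalized counts were 3453, 3627 and 3108 in DMSO, 4851, 5111 and 4497 in Met, 6788, 9755 and 7460 in FK, and 5606, 5547 and 4941 in Met+FK. The order of the means was DMSO, Met, Met+FK, FK; the libraries of neighbouring groups did not overlap except those of Met and Met+FK, whose difference was 0.15 ± 0.11 (SE) on the log2 scale. Against DMSO the mean was 1.42 times as high in Met, 2.36 times in FK and 1.58 times in Met+FK, which are log2 fold changes of 0.51, 1.22 and 0.66, each ± 0.11 (SE, n = 3). With metformin present the FK866 level was lower, by 0.56 ± 0.11 for Met+FK against FK. FK replicate 2 held the highest value, 9755, and without that library the log2 fold change of FK against DMSO was 1.07 and that of Met+FK against FK was -0.41. With the GC and length trend removed, the log2 fold changes were 0.14 for Met, 0.81 for FK and 0.34 for Met+FK against DMSO, and -0.47 for Met+FK against FK.

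The effect of FK866 on SLC5A3 was thus 1.22 on the log2 scale without metformin and 0.15 with it. Their difference, the interaction, was -1.07 ± 0.16 (SE), -0.92 without FK replicate 2 and -0.60 with the GC and length trend removed. Interactions of the other members were -0.63 ± 0.15 for NFAT5, -0.55 ± 0.24 for IMPA1, -0.51 ± 0.18 for SLC6A6, 0.25 ± 0.17 for ISYNA1 and 0.26 ± 0.12 for AKR1B1. With the trend removed that of SLC6A6 was -0.56, while NFAT5 came to -0.18, IMPA1 to -0.093 and ISYNA1 to -0.054, on the other side of 0.

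SLC6A6 (chromosome 3, 14402576 to 14489349, plus strand), the taurine transporter, was split by metformin. Its normalized counts were 5123, 3722 and 5338 in DMSO, 2576, 2203 and 2938 in Met, 6933, 6725 and 7117 in FK, and 2923, 2534 and 2540 in Met+FK. The 6 libraries with metformin lay below the 6 without it, and among those without metformin the FK libraries lay above the DMSO libraries. Log2 fold changes were -0.87 ± 0.13 (SE, n = 3) for Met against DMSO, 0.57 ± 0.13 for FK against DMSO, -0.81 ± 0.13 for Met+FK against DMSO and -1.38 ± 0.13 for Met+FK against FK. The FK mean was 2.60 times the Met+FK mean. Met and Met+FK overlapped and differed by 0.058 ± 0.13. SLC6A6 has a middling GC content (51.0%), and these values moved little when the trend was removed: -0.87, 0.60, -0.83 and -1.43. It shares 243 of 8254 exon bases with GRIP2 on the opposite strand.

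The inositol transporter and the taurine transporter therefore stood on the same side of DMSO with FK866 and on opposite sides with metformin. With the GC and length trend removed the sides were unchanged, but SLC5A3 in Met stood only 0.14 above DMSO, against 0.51 before.

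**Figure D1:**
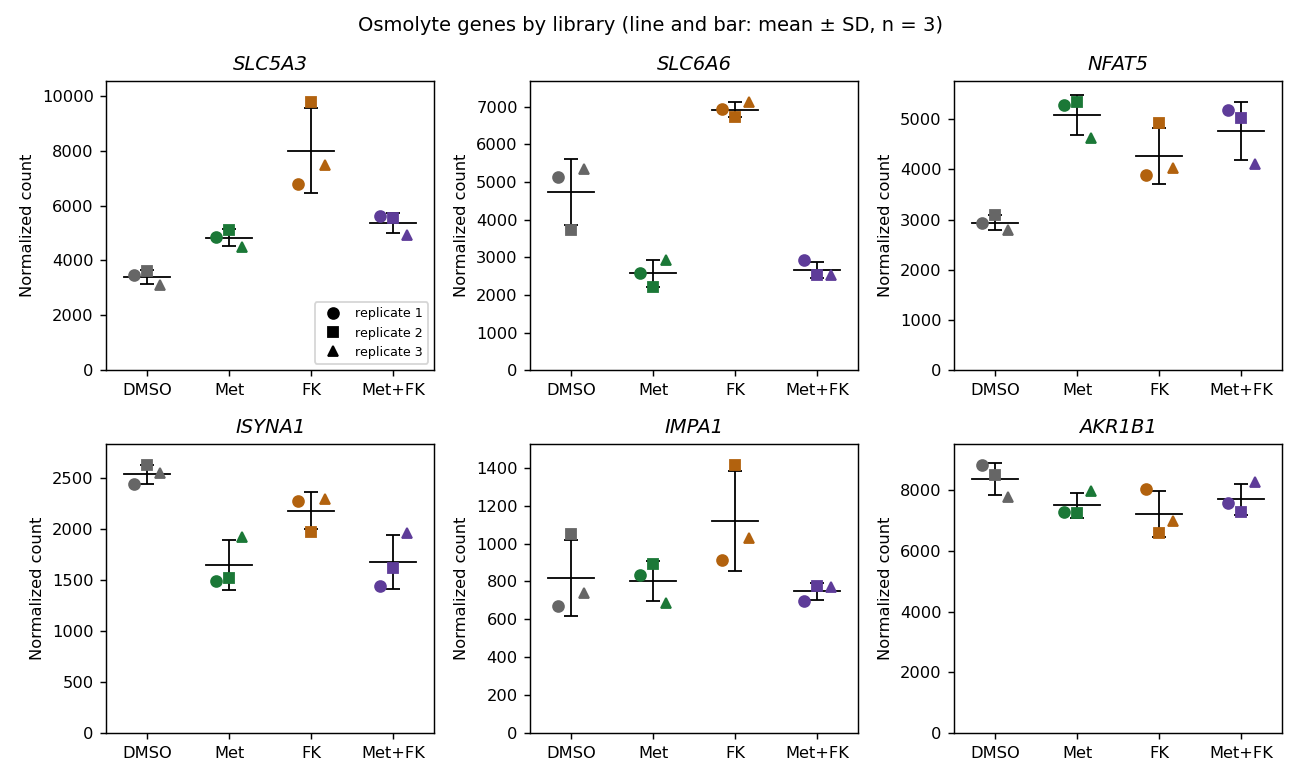
Normalized counts (vertical axis, from 0) of the 6 genes in each of the 12 libraries by treatment, with a marker shape for each replicate number, a line at the mean and a bar of ± SD (n = 3). SLC5A3 peaks in FK (6788 to 9755), SLC6A6 is low in both metformin groups (2203 to 2938), NFAT5 is lowest in DMSO and the ranges of AKR1B1 overlap throughout.

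ISYNA1 (chromosome 19, 18434388 to 18438167, minus strand), which makes inositol 3-phosphate from glucose 6-phosphate and so begins inositol synthesis, was lower with metformin. Its normalized counts were 2440, 2625 and 2549 in DMSO, 1486, 1521 and 1925 in Met, 2276, 1974 and 2291 in FK, and 1441, 1617 and 1961 in Met+FK. The Met and Met+FK libraries lay below those of DMSO and FK and overlapped each other. The log2 fold change against DMSO was -0.64 ± 0.12 (SE, n = 3) in Met, -0.22 ± 0.12 in FK and -0.61 ± 0.12 in Met+FK. With the GC trend removed these became -0.44, 0.017 and -0.48, so the small FK difference changed sign. SSBP4 on the opposite strand covers 175 of its 3150 exon bases.

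IMPA1 (chromosome 8, 81656914 to 81686331, minus strand), the phosphatase that frees inositol, had the widest spread within DMSO and within FK relative to its mean. The replicates had 669, 1048 and 738 normalized counts in DMSO, 835, 890 and 685 in Met, 914, 1415 and 1030 in FK, and 697, 778 and 770 in Met+FK. Replicate 2 was the highest library of each group, and no group was separate from DMSO, though FK lay above Met and above Met+FK. The FK log2 fold change against DMSO of 0.45 ± 0.17 (SE, n = 3) came to 0.27 without FK replicate 2 and to 0.064 with the GC trend removed. The values against DMSO for Met, -0.008 ± 0.17, and for Met+FK, -0.10 ± 0.17, were both smaller than their errors.

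AKR1B1 (chromosome 7, 134442356 to 134459284, minus strand), the aldose reductase that makes sorbitol from glucose, differed least. Normalized counts came to 8834, 8510 and 7788 in DMSO, 7295, 7246 and 7975 in Met, 8049, 6587 and 6999 in FK, and 7572, 7274 and 8266 in Met+FK. The ranges of all 4 groups overlapped. Log2 fold changes against DMSO were -0.16 in Met, -0.22 in FK and -0.12 in Met+FK, each ± 0.084 (SE, n = 3), and lay between -0.035 and 0.018 with the GC trend removed.

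**Figure D2:**
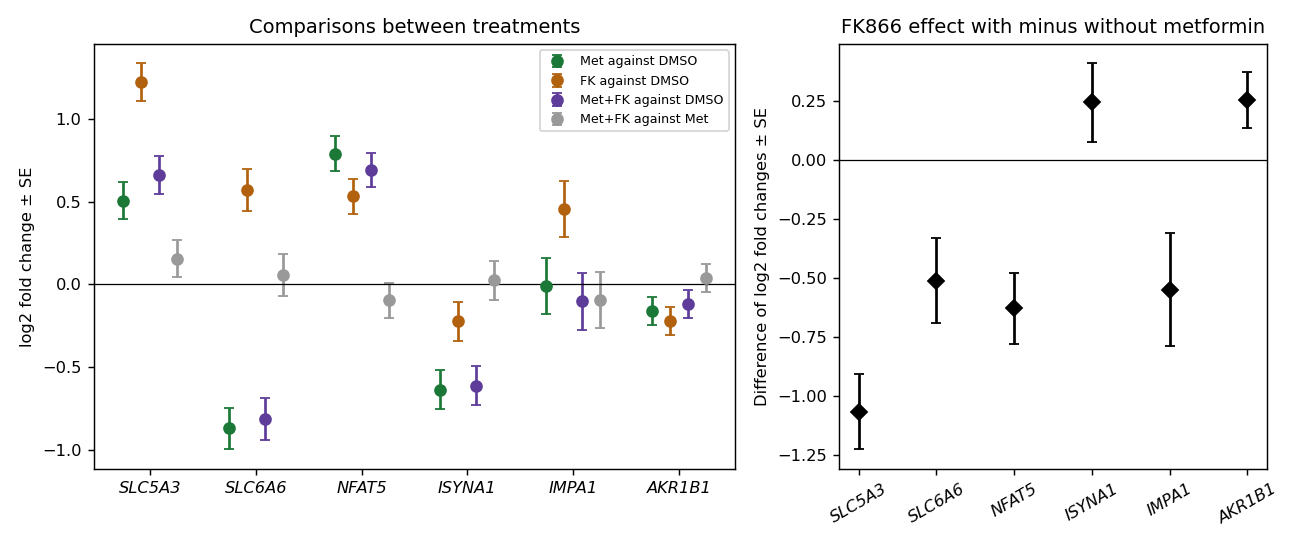
Left, log2 fold changes ± SE (3 libraries per group) of each of the 6 genes for Met, FK and Met+FK against DMSO and Met+FK against Met. Right, the FK866 effect with minus that without metformin, as a difference of log2 fold changes ± SE: SLC5A3 lies lowest, at -1.07, and ISYNA1 and AKR1B1 lie above 0.

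At the study's threshold (adjusted p under 0.05 and a fold change over 1.5, in a limma-trend fit over the 15376 genes), 3 of the 6 genes passed in Met against DMSO (NFAT5 higher, SLC6A6 and ISYNA1 lower), where 23.0% of all genes did. In FK against DMSO 1 of 6 passed, SLC5A3, against 3.49% of all genes. In Met+FK against DMSO 4 of 6 passed, SLC5A3 and NFAT5 higher and SLC6A6 and ISYNA1 lower, against 25.1%. SLC6A6 passed in Met+FK against FK (18.6% of all genes), both transporters in Met against FK (15.1%), and none in Met+FK against Met (0.0585%). For the interaction SLC5A3 was 1 of 9 genes with an adjusted p under 0.05 (0.0585%). No member passed in 9 of the 12 fits without 1 library (each DMSO or Met library, FK replicate 3, Met+FK replicate 2 or Met+FK replicate 3). In those 9 fits 0 or 1 of the 15376 genes passed (at most 0.0065%). With no filter on low values no member passed either, beside 1 of 26798 genes. With a replicate block 4 passed, where 32.0% of all genes did. With the GC and length trend removed, the members passing against DMSO numbered 1 in Met (beside 3078 of the 15376 genes), 2 in FK (197, 1.28%) and 1 in Met+FK (3620, 23.5%). Single libraries also moved the counts. In FK against DMSO 2 passed without DMSO replicate 2 (7.82% of all genes), DMSO replicate 3 (1.18%) or FK replicate 2 (0.65%). Without FK replicate 1 it was 3 (7.5% of all genes), and without DMSO replicate 1 it was 1 (0.611%). In Met+FK against FK 3 passed without FK replicate 1 (18.5% of all genes), FK replicate 3 (18.2%) or Met+FK replicate 2 (17.6%). Without Met+FK replicate 1 it was 2 (17.3% of all genes). In Met against FK 1 passed without FK replicate 2 (15.6% of all genes) and 3 without FK replicate 1 (14.4%). Nothing is read from these counts, since the genes were picked with the values known. Libraries of the groups compared did not overlap for 4 of the 6 genes in Met against DMSO (56.9% of all genes), FK against DMSO (38.8%), Met+FK against DMSO (60.9%), Met+FK against FK (50.9%) and Met against FK (43.9%), and for 0 in Met+FK against Met (13.4%). The median log2 fold change of the 6 against DMSO was -0.083 in Met, 0.49 in FK and -0.11 in Met+FK, against 0.012, -0.016 and 0.014 over all tested genes.

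Levels of different genes were compared per kilobase of exon. In DMSO the mean normalized count per kilobase was 2293 for AKR1B1, 806 for ISYNA1, 573 for SLC6A6, 294 for SLC5A3, 186 for IMPA1 and 145 for NFAT5. AKR1B1 stood at the top and the transcription factor at the bottom. In FK, SLC5A3 (692) and ISYNA1 (692) had equal values on this measure, below SLC6A6 (839). The main transcript of SLC5A3 is as long as its exons together, 11566 bases. That of ISYNA1 is shorter (2252 of 3150 bases), as is that of SLC6A6 (6500 of 8254). On transcript length ISYNA1 would stand above SLC5A3 in FK. In Met and Met+FK, SLC5A3 (417 and 464) was above SLC6A6 (312 and 323), which was the reverse of their order in DMSO.

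MRPS6, which has an annotated start and first exon in common with SLC5A3, gave another pattern. Normalized counts of MRPS6 were 5599, 5641 and 5385 in DMSO, 4050, 4040 and 4285 in Met, 6217, 5603 and 6052 in FK, and 4598, 4656 and 5146 in Met+FK. Met lay below DMSO, where SLC5A3 lay above it. In limma-trend, MRPS6 fell in Met by 0.43 ± 0.069 on the log2 scale (SE, adjusted p = 0.000156), short of the 1.5-fold threshold, while FK gave 0.10 ± 0.069 (adjusted p = 0.265) and the interaction 0.11 ± 0.098 (adjusted p = 0.424). Against FK it was lower in Met (-0.53, limma-trend adjusted p = 3.44e-05) and in Met+FK (-0.31, adjusted p = 0.00218). Met+FK against DMSO gave -0.21 (limma-trend adjusted p = 0.0203), and this stayed under 0.05 after 2 of the 6 omissions of a single library.

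The ratio of SLC5A3 to MRPS6 normalized counts within a library was 0.617, 0.643 and 0.577 in DMSO, 1.20, 1.26 and 1.05 in Met, 1.09, 1.74 and 1.23 in FK, and 1.22, 1.19 and 0.960 in Met+FK. It was lower in DMSO than in the other 9 libraries, which overlapped across treatments. SLC5A3 (38.3% GC) and MRPS6 (47.5%) differ in GC content, and the ratio was not computed with the GC trend removed. FK replicate 2, with the highest ratio, also had the lowest GC slope (-0.25). The part of this trend in the ratio was not tested. The mean was 0.612 ± 0.033 (SD, n = 3) in DMSO, 1.17 ± 0.11 in Met, 1.36 ± 0.34 in FK and 1.12 ± 0.14 in Met+FK. Reads in the shared first exon cannot be assigned to either gene. The 265 shared exon bases are few beside the 11566 of SLC5A3. They are a larger part of MRPS6, with 4273 exon bases and a main transcript of 931. The long exon of SLC5A3 lies in an intron of MRPS6, so reads of unspliced MRPS6 RNA there cannot be told from SLC5A3. The part of either in the ratio was not tested. KCNE2, the next gene at the locus, held normalized counts of 1.89 to 13.6.

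**Figure D3:**
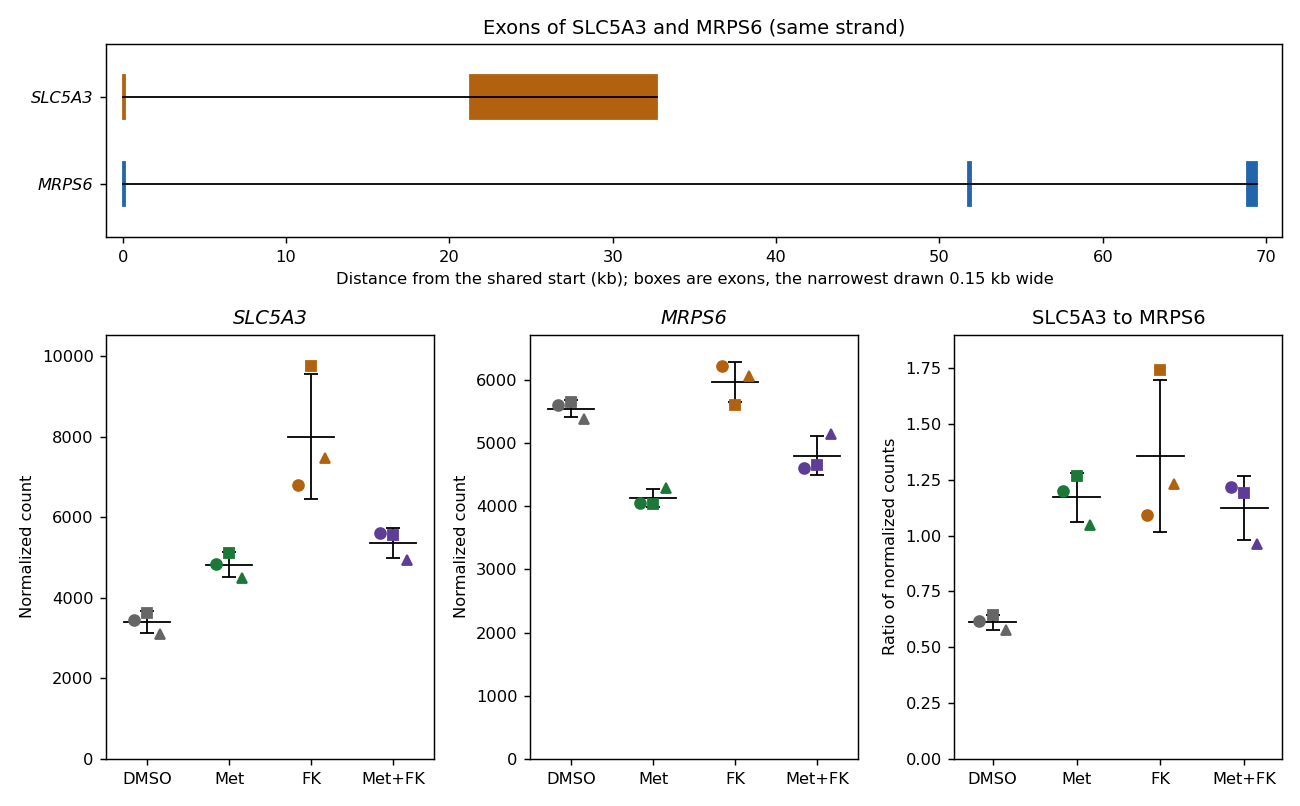
Top, exons of SLC5A3 and MRPS6 as boxes by distance in kb from their shared start, with the narrowest box widened slightly. Bottom, normalized counts of SLC5A3 and MRPS6 and the ratio of the former to the latter in each library by treatment, with marker shapes for replicates, a line at the mean and a bar of ± SD (n = 3). The ratio, taken without removal of the GC trend, is 0.577 to 0.643 in the 3 DMSO libraries and higher in the other 9.

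Genes whose log2 levels followed SLC5A3 most closely over the 12 libraries, among 11520 genes with a mean of at least 100, were CYP1B1 (Pearson's r = 0.973), SAT1 (0.973), CD109 (0.945), ZNF860 (0.943) and SLC26A2 (0.941). CYP1B1 codes for a cytochrome P450, SAT1 for the enzyme that acetylates spermidine and spermine, CD109 for a cell surface protein and SLC26A2 for a sulfate transporter. CYP1B1, for example, had a mean normalized count of 285 in DMSO, 466 in Met, 715 in FK and 480 in Met+FK. The most opposed were FJX1 (r = -0.967), MPV17 (-0.952), TNFRSF12A (-0.950), TFAP4 (-0.945) and LAT2 (-0.942). These libraries share the GC trend: the genes most alike had a GC content of 38.4% to 43.96% and those most opposed 52.9% to 64.0%. Of the other members, IMPA1 (r = 0.66) and NFAT5 (0.61) were nearest to SLC5A3, followed by SLC6A6 (0.31), ISYNA1 (-0.30) and AKR1B1 (-0.74).

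The wider set of osmolyte and cell volume genes held 63 genes in 7 lists, 52 of them tested. In Met against DMSO, 9 of the 52 changed past the threshold (17.3%, against 23.0% of all genes), 5 higher and 4 lower. The median log2 fold change of the 52 was 0.0073, against 0.012 over all genes. In FK against DMSO 5 of 52 changed (9.62%, against 3.49%), 4 higher and 1 lower, with a median of -0.027. The lists are described by role in what follows, with adjusted p-values over all 15376 genes.

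Among 3 tested osmolyte transporters of the wider set, SLC38A2, a carrier of small neutral amino acids, rose in both single treatments. The libraries held 11051, 14899 and 12478 normalized counts in DMSO, 19480, 22475 and 17710 in Met, and 16462, 26252 and 18761 in FK, all above DMSO. The log2 fold change was 0.64 ± 0.15 in Met (SE, n = 3; limma-trend adjusted p = 0.00212) and 0.66 ± 0.15 in FK (adjusted p = 0.0179). With the GC trend removed both fell short of the threshold, at 0.35 and 0.29. The Met call was also lost without DMSO replicate 1 (0.54) or Met replicate 2 (0.55). The betaine transporter SLC6A12 (2.09 to 13.7) and the second inositol transporter SLC5A11 (0.945 to 5.66) stayed below a mean of 10.

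Of the inositol genes, IMPA2, the paralog of IMPA1, fell in Met. It had 774, 812 and 818 normalized counts in DMSO against 411, 408 and 517 in Met, a log2 fold change of -0.85 ± 0.12 (SE, n = 3; limma-trend adjusted p = 3.73e-05). In Met+FK the fold change was -0.86 (limma-trend adjusted p = 2.89e-05), and FK gave -0.30 (adjusted p = 0.0760). The corresponding value of IMPA1 in Met was -0.008, and the difference between the paralogs was not tested. CDS1, which makes the CDP-diacylglycerol used for phosphatidylinositol, rose from 77.6 to 123 in Met (0.64 ± 0.17, limma-trend adjusted p = 0.00639). That call was lost with the GC trend removed (0.43), without DMSO replicate 3 (0.55) and without Met replicate 1 (0.52). CDS2, of the same list and far more abundant, had means of 1624 in DMSO and 1640 in Met (0.013 ± 0.086, limma-trend adjusted p = 0.907). Of 10 tested inositol phosphate kinases, ITPKA fell in Met (-0.62 ± 0.13, limma-trend adjusted p = 0.000937) and in FK (-0.62 ± 0.13, adjusted p = 0.0136). Both ITPKA calls were lost with the GC trend removed (-0.43 and -0.37) and without DMSO replicate 3 (-0.55 in each), and also without Met replicate 1 (-0.54) or 2 (-0.57) and without FK replicate 1 (-0.56). PPIP5K2, another kinase of the list, rose in FK by 0.71 ± 0.20 (limma-trend adjusted p = 0.0297), a call discussed with the other FK calls.

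GPCPD1, which breaks down glycerophosphocholine, rose in both single treatments. Libraries held 310, 435 and 340 normalized counts in DMSO, 810, 860 and 754 in Met, 510, 773 and 499 in FK, and 915, 876 and 745 in Met+FK, so that each treated library was above DMSO. This gave a log2 fold change of 1.17 ± 0.16 in Met (SE, n = 3; limma-trend adjusted p = 3.19e-05) and 0.70 ± 0.16 in FK (adjusted p = 0.0190). SORD, which turns sorbitol into fructose, fell in Met by 0.36 ± 0.076 (limma-trend adjusted p = 0.00111), under the fold threshold. Of 4 tested taurine and betaine enzymes none passed in Met or FK in limma-trend, with 1 at an unadjusted p under 0.05 in each.

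Among 9 tested genes of tonicity signalling or responsive to NFAT5, 2 passed in Met (22.2%, against 23.0% of all genes). Both were lower. NFAT5 was higher there (log2 fold change 0.79, or 0.41 with the GC and length trend removed), and a link between these levels was not tested. SGK1, a kinase induced by osmotic and hormonal signals, had normalized counts of 5026, 4635 and 4915 in DMSO, 2747, 2713 and 2699 in Met, 6037, 5596 and 5645 in FK, and 2876, 3013 and 2945 in Met+FK. The 6 libraries with metformin lay below the 6 without, in the same arrangement as SLC6A6. In Met the log2 fold change was -0.84 ± 0.065 (SE, n = 3; limma-trend adjusted p = 1.61e-07). S100A4, a calcium-binding protein, fell from 96.9 to 42.6 (-1.19 ± 0.22, limma-trend adjusted p = 0.000369). In FK, SGK1 gave 0.25 ± 0.065 (limma-trend adjusted p = 0.0264), under the fold threshold, and HSPA4L, a heat shock protein of the HSP110 family, rose by 0.62 ± 0.21 (adjusted p = 0.0447). HSPA1A and HSPA1B, near-identical copies whose reads may have been split or dropped, lay at 0 to 5.77 and at 0.

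Of 16 tested genes for ion cotransport, the volume-regulated anion channel and water channels, LRRC8D and WNK4 rose in Met. LRRC8D is a subunit of the anion channel through which swollen cells release osmolytes such as taurine. Its normalized counts were 183, 201 and 182 in DMSO, 563, 538 and 528 in Met, 207, 273 and 200 in FK, and 580, 671 and 576 in Met+FK. The libraries with metformin were separate from those without it, by 1.52 ± 0.12 on the log2 scale in Met against DMSO (SE, n = 3; limma-trend adjusted p = 1.90e-07) and 1.43 in Met+FK against FK (adjusted p = 3.59e-07). LRRC8A, the subunit that each such channel needs, fell in Met from 4050 to 2890 (-0.49 ± 0.077, limma-trend adjusted p = 0.000122), under the fold threshold. WNK4, a kinase that regulates ion cotransporters, rose from 37.5 to 88.0 (1.22 ± 0.24, limma-trend adjusted p = 0.000623).

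The FK calls in the wider set were less firm than the Met calls. SLC38A2, GPCPD1, PPIP5K2 and HSPA4L all had their highest FK value in replicate 2, at 26252, 773, 3106 and 895, and all 5 calls were lost with the GC trend removed. The count of 5 became 1 without FK replicate 2, 1 without DMSO replicate 1, 0 without DMSO replicate 3 and 1 when the 6 libraries were fitted alone. In Met, the calls of IMPA2, GPCPD1, SGK1, S100A4, WNK4 and LRRC8D passed under each of the 18 alternatives run.

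Between Met+FK and Met no gene of the 52 passed in limma-trend, where 2 had an unadjusted p under 0.05, and edgeR and DESeq2 called 0 as well. Met+FK against DMSO gave 10 calls (19.2%, against 25.1% of all genes). LRRC8D (1.68), WNK4 (1.42), GPCPD1 (1.23), CDS1 (0.86), SLC38A2 (0.69) and ITPKC (0.67) were higher and S100A4 (-1.32), IMPA2 (-0.86), SGK1 (-0.72) and CHDH (-0.65) lower, with limma-trend adjusted p-values of at most 0.0151. The DMSO libraries are the same as in the Met comparison, and SLC38A2 was at 0.46 with the GC trend removed, short of the threshold. For the interaction limma-trend gave 0 calls, with 16 genes at an unadjusted p under 0.05. The count was 0 in edgeR, 3 in DESeq2 (SLC12A2, SLC38A2 and GPCPD1), 8 without FK replicate 1 and 18 with a replicate block, where 872, 1845 and 4914 of the 15376 genes passed in the last 3. SLC12A2, a sodium, potassium and chloride cotransporter that loads cells with ions, had the interaction of -0.69 ± 0.18 (SE, limma-trend adjusted p = 0.110), with normalized counts of 1873 to 2055 in DMSO, 1941 to 2409 in Met, 2322 to 3625 in FK and 1836 to 2065 in Met+FK.

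**Figure D4:**
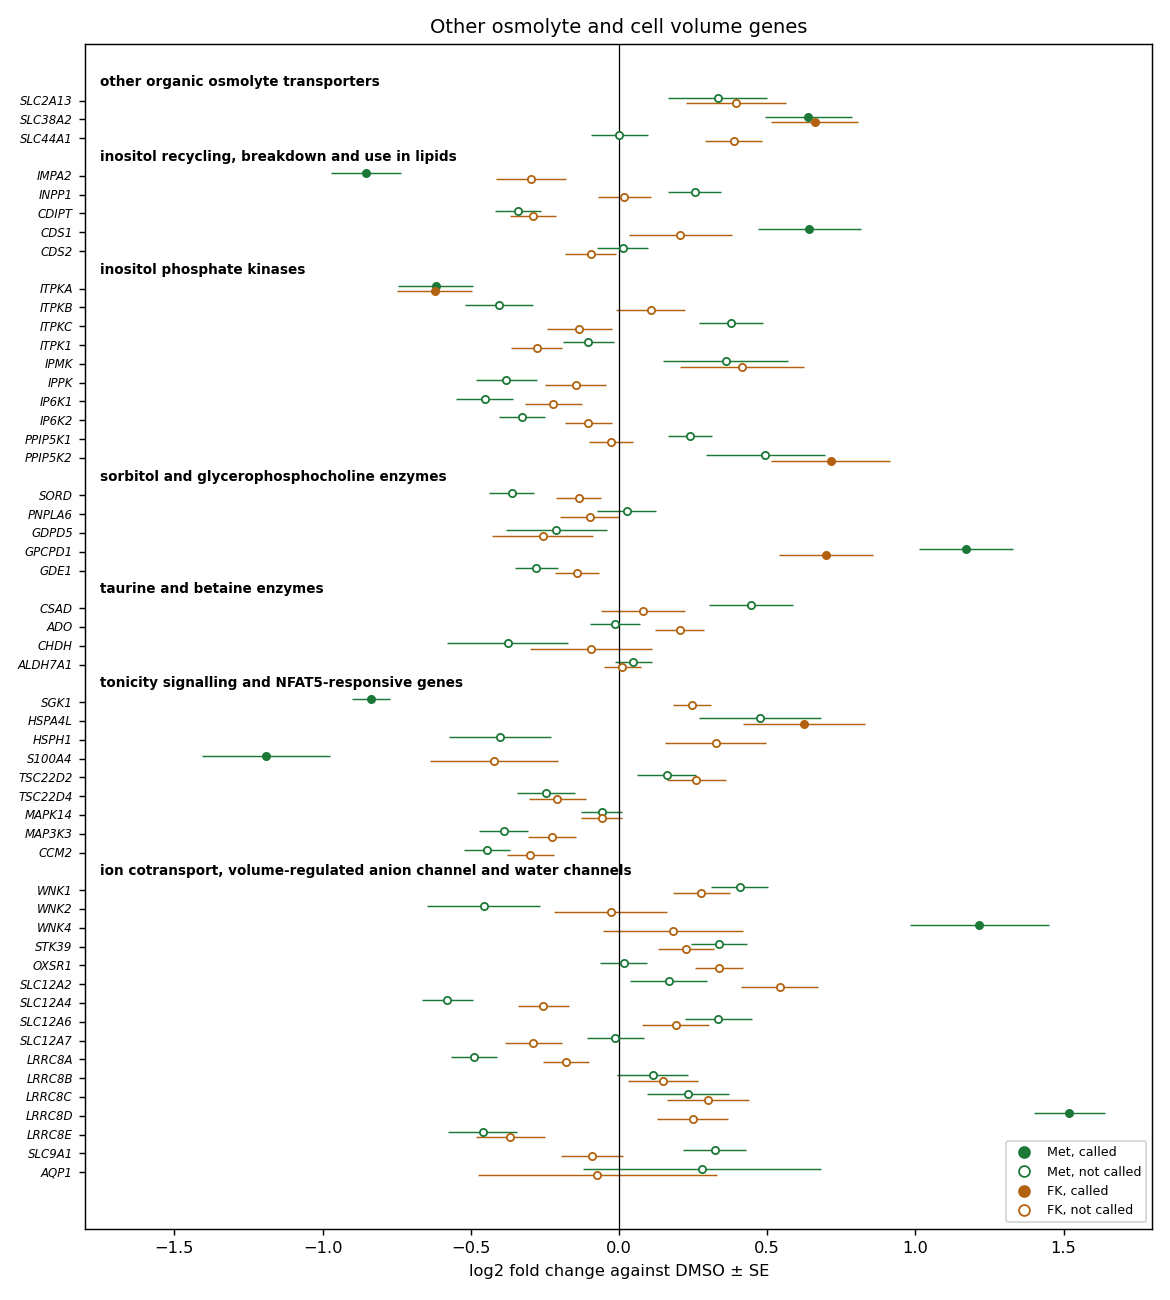
Log2 fold change against DMSO ± SE (horizontal axis, 3 libraries per group) of the 52 tested genes of the wider lists, grouped by role, in Met (green) and in FK (orange), with filled points past the threshold. LRRC8D (1.52), WNK4 (1.22) and GPCPD1 (1.17) are the highest in Met and S100A4 (-1.19) the lowest.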

How the data were processed

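RNA from KP4 cells (12 libraries, 3 per treatment) was sequenced after ribosomal RNA removal. Per the study's methods, the authors used cutadapt for trimming, STAR for alignment to hg38, featureCounts for gene counts and DESeq2 for normalization. The strand setting and the annotation are not given in the sources used here, so reads shared by overlapping genes cannot be told apart. The deposited values are a signal, counts divided by 1 size factor per library (0.867 to 1.21). Whole reads were recovered for 100% of values within 0.01 reads. No pair of replicates agreed within counting noise (chi-square over its degrees of freedom, 5.69 to 51.4).

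limma-trend (limma 3.58.1, R 4.3.3) was run on log2(normalized count + 1) of 15376 genes with a mean of at least 10, with the 12 libraries fitted together and p-values adjusted by Benjamini-Hochberg. This scale understates the fold changes of low genes. Calls needed an adjusted p under 0.05 and a fold over 1.5, the interaction (effect of FK866 with minus without metformin) the adjusted p alone. The test was checked on simulated counts, drawn independently with the same relative spread for all genes and no GC trend. That check does not cover the GC trend or the correlation between libraries seen here. Alternatives were other pseudocounts (0.1 and 10), filters and scalings, removal of the GC and length trend by loess (span 0.3), a replicate block, edgeR 4.0.16 or DESeq2 1.42.0 on recovered reads, and leaving out each library. Same-numbered libraries deviated together in DMSO and FK (r = 0.25, 0.42 and 0.22) and in Met and Met+FK (r = 0.17, 0.20 and 0.23). With the GC and length trend removed these were 0.14, 0.17 and 0.13, and 0.16, 0.096 and 0.071. Other pairs of groups included values of 0.1 or less, but also higher ones. Met and FK had 0.40 for replicate 2 and 0.30 for replicate 3, and DMSO and Met had 0.33 and 0.25. With the trend removed, replicates 1 to 3 gave 0.12, 0.14 and 0.12 in Met and FK. In DMSO and Met they gave 0.073, 0.12 and 0.13. A pairing by replicate number is read from the values, since the labels give numbers alone. Which groups were paired cannot be told from them.

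The 6 genes and the wider lists were chosen with earlier results of these data known. Named are the 6, MRPS6 and KCNE2, each gene of the wider lists called in Met or FK against DMSO, Met+FK against Met or the interaction, and the 5 genes most and 5 least correlated with SLC5A3. ITPKC, CHDH, CDS2, SLC12A2, SORD, LRRC8A, SLC6A12, SLC5A11, HSPA1A and HSPA1B were named after their values were seen. Positions are 1-based and those of the deposited table, equal to GENCODE 44 for the 6 genes.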

Additional observations from a re-analysis of the deposited data

Results flagged for a closer look

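SLC5A3 met a rule for opposite movement in 2 contrasts. Metformin went with a higher level in the absence of FK866 (each Met library above each DMSO library) and with a lower level in its presence (each Met+FK library below each FK library). With the GC and length trend removed, Met against DMSO was 0.14 on the log2 scale (0.51 before). Met+FK against FK was then -0.47 (-0.56 before). The log2 effect of metformin with FK866 minus that without was -1.07, the same value as the interaction of the report. No p-value is given for it, because the gene was chosen with these levels known. Its call in the fit across all genes was lost in 9 of the 12 fits without 1 library. In those 9 fits 0 or 1 of the 15376 genes passed for the interaction.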

How the results depend on the processing

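Of the log2 fold changes of the 6 genes, 10 took the other sign under at least 1 alternative, and none of these was over 0.25 in size. With the GC and length trend removed, the log2 fold change of SLC5A3 moved to 0.14 in Met, 0.81 in FK and 0.34 in Met+FK against DMSO, and its interaction to -0.60, with or without the replicate block. For the wider set, a threshold on adjusted p alone gave 30 calls in Met, 15 in FK and 30 in Met+FK against DMSO, 23 in Met+FK against FK and 20 in Met against FK, where 50.9%, 21.1%, 52.2%, 42.1% and 36.7% of all genes passed. The FK count of 5 became 1 in the 6 libraries alone and 0 with the trend removed, with or without the block. The interaction count of 0 became 18 with the replicate block, 1 with block and trend removal (SLC12A2), and 3 in DESeq2. Leaving out 1 library gave 0 to 6 calls in FK against DMSO, 4 to 8 in Met against FK and 0 to 8 for the interaction. The replicate block moved no other count of calls in the wider set by over 1.5 times. It raised the members passing in the interaction from 1 to 4, where the share of all genes rose from 0.0585% to 32.0%. Over all genes, FK against DMSO had 536 calls, 112 in the 6 libraries alone, 197 with the trend removed and 260 with block and trend removal. Without 1 library it ran from 94 (DMSO replicate 1) to 1202 (DMSO replicate 2), with 100 without FK replicate 2, 181 without DMSO replicate 3 and 1153 without FK replicate 1. Met+FK against Met had 9, 18 in the 6 libraries alone, 25 with the block, 17 with the trend removed, 32 with both, 19 in DESeq2 and 2 to 17 without 1 library. The interaction had 9, 1 with no filter, 4914 with the block, 43 with the trend removed, 487 with both and 872 in DESeq2. Without 1 library it was 1845 (FK replicate 1), 9 (Met+FK replicate 1), 5 (FK replicate 2), 1 (DMSO replicate 2, Met replicate 3 or FK replicate 3) and 0 for the other 6. The same total in every library shifted the median log2 fold change of Met against DMSO from 0.012 to 0.13. Apart from the settings that remove samples, the cause of these changes was not tested. The 6 genes had at least 669 normalized counts in each library.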
